A study of Mus musculus with 8 samples.

Results

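The genes described here are the integrin and cadherin genes of mouse embryonic fibroblasts (MEFs), chosen by name: every gene called Itga, Itgb or Cdh followed by its number or single letter, with nothing after it. They are 45 of the 17501 genes measured, of which 18 encode integrin alpha chains, 7 integrin beta chains and 20 cadherins. The names take in 5 type I and 10 type II classical cadherins and also Cdh13, Cdh16, Cdh17, Cdh23 and Cdh26, which are not counted among the classical types here. Most members were read by 1 transcript cluster, a group of probes summed to 1 value; Cdh18, Cdh24 and Itgad had more and were averaged, which gave 48 clusters in all. Cdh9, Cdh12, Cdh19 and Itgb6 were not analysed here, and 6 clusters that share probes between Itgam or Cdh11 and other genes were not used.

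RNA was hybridised to 8 Affymetrix arrays, 1 for each combination of genotype (wild-type or Smurf2-/-, the latter lacking a ubiquitin ligase of the NEDD4 family), background and passage class. One background was C57B6 and the other a mix of 129SVJ with NIH Black Swiss, abbreviated BL. In C57B6, early and late meant passage 7 and passage 28, and in mixed BL passage 6 and passage 33. Each C57B6 culture came from 1 embryo, the wild-type mixed BL culture from 2 pooled embryos and the Smurf2-/- mixed BL culture from 3. All cells were grown alike and untreated. The labels give the embryos' age as E14.5 in the sample descriptions but as day 11.5 in the growth protocol, and do not give embryo sex. Nor do they state that a late array was a later passage of the culture behind the early one. The arrays are therefore not known to be independent cultures, and p-values reflect their spread alone, part of which may be technical.

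Integrins are heterodimers of an alpha and a beta chain that carry a cell's grip on its matrix: the alpha chain largely sets the ligand, and the beta tail binds talin and kindlin, which connect it to actin. Collagen-binding, laminin-binding and fibronectin-binding (RGD-binding) alphas mostly pair with beta1, alphav pairs with several betas, and the leukocyte alphas pair with beta2 or beta7. Integrins with alphav, above all those with beta8 and beta6, also release TGF-beta from its latent complex. Cadherins join neighbouring cells by calcium-dependent binding of like to like and are held to actin by catenins; fibroblasts are known for N-cadherin (Cdh2) and cadherin-11 (Cdh11), epithelia for E-cadherin (Cdh1).

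The values are log2 differences from each gene's own median over the 8 arrays, as the authors deposited them, so the level of one gene cannot be set against that of another. A coarse level could still be read from the rounding step of the numbers: 8 of the 45 members (17.8%) came from log2 intensities of 8 or more in every array, namely Itga3, Itga5, Itga8, Itgav, Itgb1, Itgb5, Cdh2 and Cdh11. Over all genes this held for 21.3%, and for olfactory and vomeronasal receptor clusters, taken as a background that fibroblasts should lack, for 0.578%. A gene that dropped below that level in 1 array is not in this class. Of the fibroblast markers 6 of 10 were in the class (Col1a1, Col1a2, Col3a1, Vim, Pdgfrb and Thy1), and of the markers of leukocytes (11 genes), platelets (4), endothelium (9), epithelium (9), skeletal muscle (9) and the nervous system (6) none was.

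As a check of the labels, Smurf2 was lower in 4 of 4 matched pairs, by -1.57 ± 0.12 (log2, SE of the limma fit, adjusted p = 0.0484). That call was lost under most other settings, with an adjusted p of 0.232 without X and Y genes and 0.498 with no replicate block, while the direction held in all. The sex-linked genes Xist (-4.36 ± 0.33) and Uty (2.35 ± 0.13) parted the same 4 arrays from the same 4, so genotype and this sex-linked difference cannot be told apart. The late Smurf2-/- arrays stood apart from the rest on the first principal component of all genes (29.6% of the variance), at 35.3 in C57B6 and 33.3 in mixed BL against 4.59 or less elsewhere. RNA of a culture is read in bulk, so fewer cells of a type and less RNA per cell cannot be told apart.

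The members were split between genes that varied widely over the 8 arrays and genes that hardly varied. The median range, highest minus lowest array, was 0.87 on the log2 scale for the members and 0.54 for all genes, and 22 of 45 members (48.9%) ranged over 1 or more against 19.8% of all genes. By role the median range was 2.67 for the collagen-binding alphas, 2.16 for the laminin-binding and 1.60 for the RGD-binding ones, but 0.15 for the leukocyte alphas, 0.32 for type I and 0.35 for type II cadherins; no test of these differences was run. The widest ranges were those of Itga11 (2.93), Itga2 (2.79), Itga8 (2.57), Itga1 (2.55) and Cdh10 (2.54). By the rounding step, Itga11 was not at a log2 intensity of 4 or more in every array, as 96.8% of all clusters were. How much of its range comes from weak signal was not tested. The narrowest were those of Itgad (0.06) and Cdh8 (0.13), and all 5 leukocyte alphas ranged over 0.25 or less. In the map of all members by array, colour is concentrated in the integrin alphas of matrix ligands, in Itgb3, Itgb5 and Itgb8, and in Cdh2, Cdh3, Cdh6, Cdh10, Cdh11, Cdh16, Cdh17 and Cdh18.

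**Figure D1:**
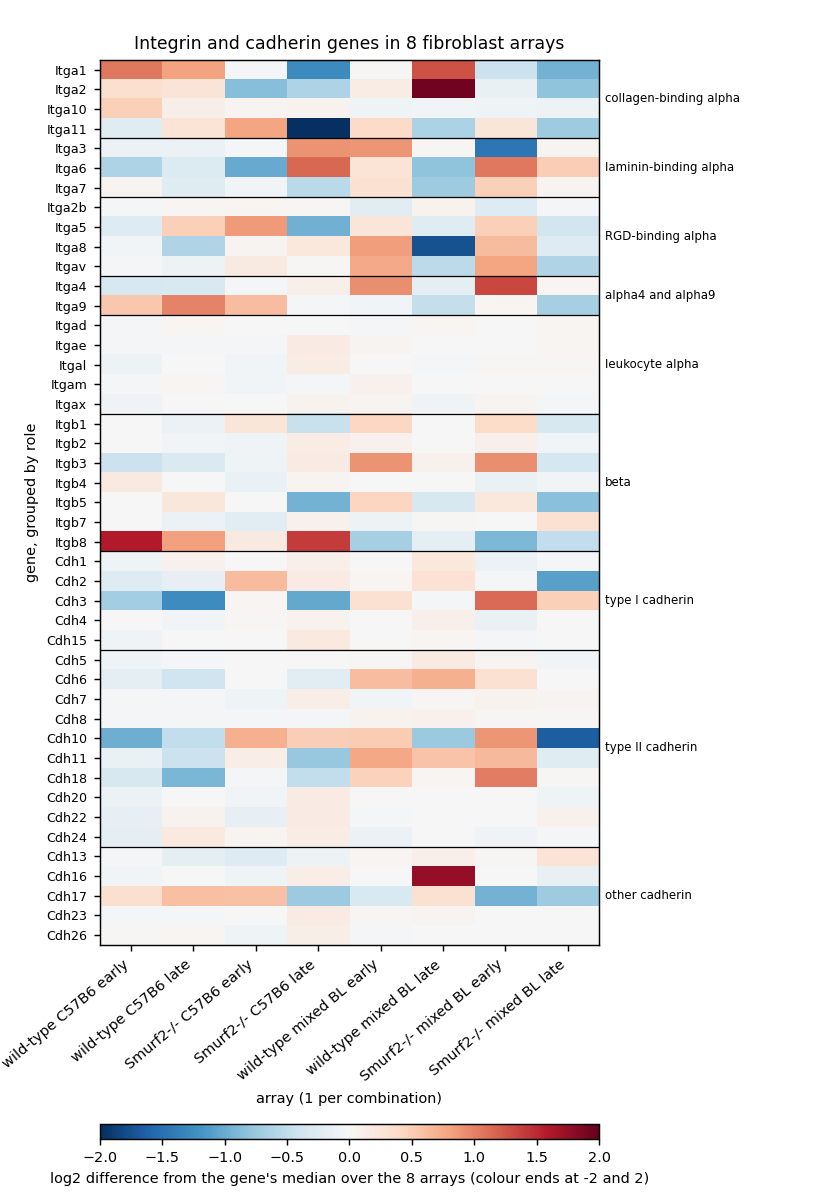
Map of the 45 genes (rows, grouped by role) in the 8 arrays (columns, 1 per combination). Colour is the log2 difference from the gene's median over the 8 arrays, red higher and blue lower, with the scale ending at -2 and 2; the leukocyte alphas stay near 0 in every array, whereas the collagen-binding alphas Itga1, Itga2 and Itga11 range over 2.55 to 2.93.

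In no comparison was a member called at a limma adjusted p under 0.05 over all genes. For genotype, 0 members and 0.0286% of all genes were called. Those 5 genes were Smurf2 itself and the sex-linked Xist, Uty, Kdm5d and Eif2s3y. For passage, 0 members and 0.0171% were called, and for background 0 members and 0.08%. At an unadjusted p under 0.05 there were 4 members for genotype (2 higher and 2 lower in Smurf2-/-) beside 7.55% of all genes, 8 for passage (1 higher and 7 lower at late passage) beside 17.3%, and 9 for background (6 higher and 3 lower in mixed BL) beside 13.5%. As shares of the 45 members the counts for genotype and passage are 8.89% and 17.8%, near the shares of all genes, and the count for background is 20%, above the share of all genes. Whether that last share differs from the one of all genes was not tested. The median difference over the members was -0.01 for genotype, 0.01 for passage and 0.02 for background, and over all genes 0.02, 0.03 and 0.00. Over the 8 members at log2 8 or more in every array, the medians were -0.09, -0.59 and 0.03, in the same order. All genes of that class had medians of -0.01, -0.09 and 0.04. For passage 7 of these 8 members were lower. Whether they differ from the class as a set was not tested. All values named below with an adjusted p are therefore differences that did not pass the test.

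**Figure D2:**
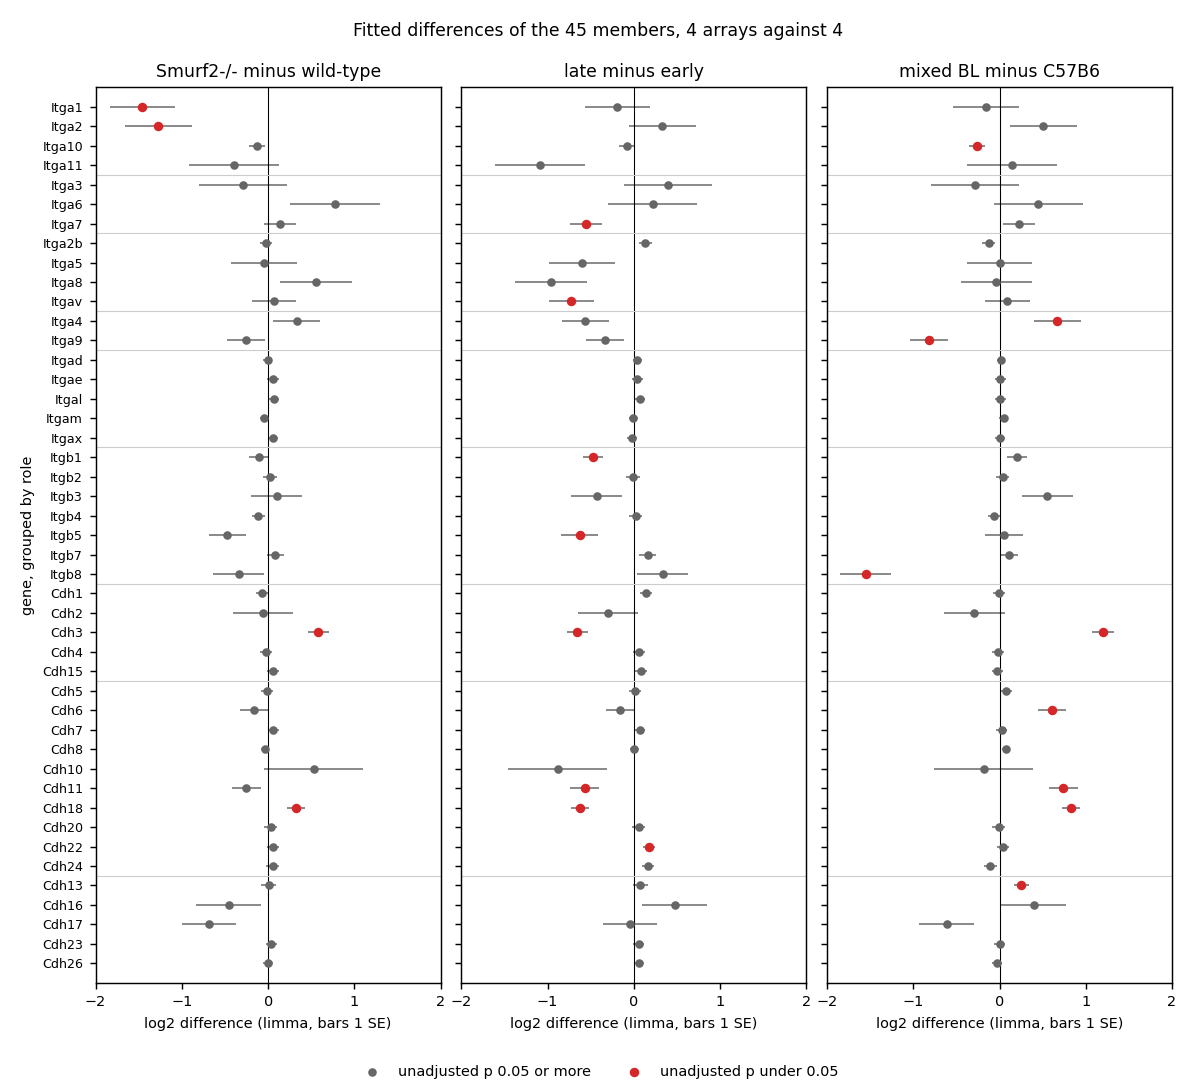
Fitted log2 differences of the 45 genes (rows, grouped by role) for Smurf2-/- minus wild-type, late minus early passage and mixed BL minus C57B6, each 4 arrays against 4. Points are limma estimates, bars 1 SE, and red marks an unadjusted p under 0.05; Itga1 and Itga2 lie lowest for genotype, Cdh3 highest for background and Itgb8 lowest for background.

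The collagen receptors Itga1 and Itga2 were the members that differed most between genotypes. Both encode alpha chains with a collagen-binding I domain, alpha1 preferring basement membrane collagen and alpha2 fibrillar collagen. In the sentences that follow, a pair of values is always the early array and then the late one. In Itga1 the wild-type arrays read 1.05 and 0.80 in C57B6 and 0.03 and 1.27 in mixed BL. The Smurf2-/- arrays read -0.03 and -1.28 in C57B6 and -0.44 and -0.95 in mixed BL. All 4 Smurf2-/- arrays lay below all 4 wild-type arrays, by the narrow gap between -0.03 and 0.03. The difference was -1.46 ± 0.38 (SE; 2.75-fold lower, adjusted p = 0.651), between a wild-type mean of 0.79 ± 0.54 (SD, n = 4) and a Smurf2-/- mean of -0.67 ± 0.55 (SD, n = 4).

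Itga2 read 0.33 and 0.27 in wild-type C57B6 and 0.15 and 1.94 in wild-type mixed BL. The Smurf2-/- arrays read -0.86 and -0.62 in C57B6 and -0.15 and -0.80 in mixed BL. Here too every Smurf2-/- array lay below every wild-type array, and the late wild-type mixed BL array stood far above the other 3 of its genotype. The difference was -1.27 ± 0.39 (SE; 2.42-fold lower, adjusted p = 0.651), between a wild-type mean of 0.67 ± 0.85 (SD, n = 4) and a Smurf2-/- mean of -0.61 ± 0.32 (SD, n = 4). With that single array left out it was -0.85 for Itga2 and -1.13 for Itga1. Without both late Smurf2-/- arrays it was -0.74 for Itga2 and -0.77 for Itga1.

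These were the 2 members whose genotype groups did not overlap in the lower direction, beside 1.02% of all genes; in the higher direction there were 0 members, beside 1.14%. The gap in Itga1 was wider at late passage, where the pairs differed by -2.07 in C57B6 and -2.22 in mixed BL, than at early passage, where they differed by -1.08 and -0.46. The interaction of genotype with passage in Itga1 was -1.38 ± 0.55 (SE, adjusted p = 0.929). Itga1 and Itga2 are neighbours on chromosome 13, with no other protein-coding gene of the RefSeq table between them. Since they are neighbours that differed in the same direction, the windows around their starts are shown, from 250 bases before to 50 after the start, from RefSeq (assembly GRCm38.p6, minus strand, 5′ to 3′). They lie at chr13:115101915-115102214 for Itga1 and chr13:114932051-114932350 for Itga2. Capitals mark matches on either strand to any of 5 short motifs that were searched. The GC box, bound by Sp1 family factors, was spelled GGGCGG. The site of the AP-1 factors Fos and Jun was spelled TGANTCA. The E-box bound by the Snail and Zeb repressors of cadherin genes was spelled CACCTG. The core of the Smad binding element, through which TGF-beta signals act, was spelled CAGAC. The TATA box, where transcription machinery assembles, was spelled TATAAA. None of these overlaps another within the windows shown.
Itga1: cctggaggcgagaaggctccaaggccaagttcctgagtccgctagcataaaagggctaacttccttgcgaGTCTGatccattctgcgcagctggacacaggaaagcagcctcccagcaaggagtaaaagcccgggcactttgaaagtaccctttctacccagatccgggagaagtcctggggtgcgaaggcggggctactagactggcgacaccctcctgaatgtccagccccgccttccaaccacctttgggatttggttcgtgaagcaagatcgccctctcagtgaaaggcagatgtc
Itga2: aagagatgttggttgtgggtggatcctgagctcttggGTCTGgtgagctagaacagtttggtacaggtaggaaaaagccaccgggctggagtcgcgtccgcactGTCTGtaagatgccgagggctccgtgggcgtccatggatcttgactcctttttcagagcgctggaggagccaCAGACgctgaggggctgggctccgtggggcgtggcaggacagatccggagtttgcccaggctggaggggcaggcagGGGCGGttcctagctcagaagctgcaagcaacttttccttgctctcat

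The Itga1 window held 1 match to the Smad box letters, and the Itga2 window held 3, with 1 GC box match. These 5 letters are common, being found in 49.6% of the 32851 windows of the table. Windows were found for 28 members, 31 windows in all. Of the 31 windows, 20 held the Smad box letters, 14 the GC box letters (35.7% of all windows) and 8 the E-box letters (20.2%). The AP-1 letters were in 3 (7.81%) and the TATA box letters in 0 (13.6%). The counts are of windows and not of genes: 2 members had more than 1 window, and each Cdh7 window held Smad box and E-box letters. The median GC content was 59.0% in the members' windows and 52.7% in all windows. A match describes letters and not a bound site.

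The fitted genotype differences of the other collagen receptors were also negative, but smaller. The genotype difference was -0.40 ± 0.52 (SE, adjusted p = 0.840) for Itga11, lower in 3 of 4 pairs, and -0.13 ± 0.09 (SE, adjusted p = 0.720) for Itga10, lower in 4 of 4. The Itga11 value leaned on the late C57B6 pair, which differed by -2.41. Its other pairs differed by 1.04 (early C57B6), -0.14 (early mixed BL) and -0.08 (late mixed BL). Within early passage the Itga11 difference was 0.45 ± 0.59 (SE). The median over the 4 collagen-binding alphas was -0.84 for genotype, -1.53 within late passage and -0.47 within early passage. Over all genes these medians were 0.02, 0.02 and 0.00. The 4 include Itga1 and Itga2, the members that differed most between genotypes. Itga11, the fibroblast receptor for fibrillar collagen, read -0.24 and 0.28 in wild-type C57B6 and 0.38 and -0.63 in wild-type mixed BL. The Smurf2-/- arrays read 0.80 and -2.14 in C57B6 and 0.24 and -0.71 in mixed BL. A total of 3 of the 4 late arrays lay below all early arrays, and the late wild-type C57B6 array did not, so the groups overlapped. Itga11 was not at a log2 intensity of 4 or more in every array, so its lowest values may be weak signal. The passage difference was -1.09 ± 0.52 (SE; 2.13-fold lower, adjusted p = 0.344), and -0.56 without the late Smurf2-/- C57B6 array. Itga10, a receptor of cartilage collagen, ranged over 0.58 and was lower in mixed BL by -0.27 ± 0.09 (SE, adjusted p = 0.298), with no overlap of the groups. The window around the start of Itga11, the widest ranging member, lies at chr9:62677605-62677904 (plus strand) and held 1 match to the E-box letters, in capitals.
Itga11: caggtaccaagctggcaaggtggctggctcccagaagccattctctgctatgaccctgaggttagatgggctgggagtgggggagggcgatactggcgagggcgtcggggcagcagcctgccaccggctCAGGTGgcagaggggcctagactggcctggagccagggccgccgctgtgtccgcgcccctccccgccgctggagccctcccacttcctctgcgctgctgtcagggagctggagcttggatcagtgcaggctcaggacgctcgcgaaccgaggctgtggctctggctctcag

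Among the laminin receptors, Itga3, Itga6 and Itga7 ranged over 2.35, 2.16 and 1.19. Itga3 was highest in the late Smurf2-/- C57B6 array (0.91) and in the early wild-type mixed BL array (0.89), and lowest in the early Smurf2-/- mixed BL array (-1.45), an order that follows none of the 3 factors. Itga6 was likewise highest in the late Smurf2-/- C57B6 array (1.14), with 1.06 in the early Smurf2-/- mixed BL array. It was lowest in the early Smurf2-/- C57B6 array (-1.01). Its genotype difference was 0.78 ± 0.52 (SE, adjusted p = 0.712), higher in Smurf2-/- in 3 of 4 pairs. Itga7, the alpha chain of muscle laminin receptors, was lower at late passage in all 4 pairs, by -0.55 ± 0.18 (SE, adjusted p = 0.228).

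The RGD-binding alphas recognise fibronectin, vitronectin and latent TGF-beta. Itgav read -0.02 and -0.10 in wild-type C57B6, and 0.17 and 0.02 in Smurf2-/- C57B6. In mixed BL it read 0.75 and -0.52 in wild-type and 0.80 and -0.59 in Smurf2-/- arrays. Late arrays were thus low in mixed BL of either genotype, by -1.27 and -1.39, and close to their early partners in C57B6, by -0.08 and -0.15. Over all 4 pairs the passage difference was -0.72 ± 0.26 (SE; 1.65-fold lower, adjusted p = 0.250).

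Itga5, the fibronectin receptor alpha chain, read -0.26 and 0.47 in wild-type C57B6 and 0.24 and -0.24 in wild-type mixed BL. The Smurf2-/- arrays read 0.86 and -0.96 in C57B6 and 0.48 and -0.37 in mixed BL. The early Smurf2-/- arrays were above and the late ones below their wild-type partners in both backgrounds. The genotype difference at late passage minus that at early passage was -1.45 ± 0.51 (SE, adjusted p = 0.891), the largest interaction of genotype with passage among the members with an unadjusted p under 0.05. Itga8, which binds nephronectin, ranged over 2.57 and was lowest in the late wild-type mixed BL array (-1.74). Itga2b, the platelet chain, ranged over 0.33.

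Itga4 and Itga9, which share ligands such as Vcam1 and osteopontin, differed in opposite directions between backgrounds. Itga4 was higher in mixed BL by 0.67 ± 0.27 (SE, adjusted p = 0.371), with 1.33 and 0.93 in the early Smurf2-/- and wild-type mixed BL arrays and 0.10 or less in the other 6. Itga9 was lower in mixed BL in all 4 pairs, by -0.82 ± 0.22 (SE, adjusted p = 0.218). Of the 5 leukocyte alphas (Itgad, Itgae, Itgal, Itgam and Itgax) none differed by an unadjusted p under 0.05 in any of the 3 comparisons.

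Itgb1, the partner of most matrix-binding alphas, was lower at late passage in every pair. The wild-type arrays read -0.01 and -0.12 in C57B6 and 0.42 and 0.01 in mixed BL. The Smurf2-/- arrays read 0.24 and -0.45 in C57B6 and 0.37 and -0.32 in mixed BL. All late arrays lay at or below 0.01, and the only early array among them was that of wild-type C57B6. The passage difference was -0.47 ± 0.12 (SE; 1.39-fold lower, adjusted p = 0.156), lower in 4 of 4 pairs. In Smurf2-/- cells it was -0.69 in both backgrounds, whereas in wild-type cells it was -0.11 in C57B6 and -0.40 in mixed BL; the interaction was -0.44 ± 0.16 (SE, adjusted p = 0.905).

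Itgb8 differed between backgrounds more than any other integrin. It read 1.59 and 0.82 in wild-type C57B6 and 0.18 and 1.39 in Smurf2-/- C57B6. The mixed BL arrays read -0.66 and -0.18 in wild-type and -0.89 and -0.49 in Smurf2-/-. Every mixed BL array lay below every C57B6 array, with means of -0.56 ± 0.30 (SD, n = 4) and 1.00 ± 0.63 (SD, n = 4). The difference was -1.55 ± 0.30 (SE; 2.94-fold lower, adjusted p = 0.150). The window around its start lies at chr12:119238227-119238526 (minus strand) and held 1 match each to the Smad box and E-box letters, in capitals.
Itgb8: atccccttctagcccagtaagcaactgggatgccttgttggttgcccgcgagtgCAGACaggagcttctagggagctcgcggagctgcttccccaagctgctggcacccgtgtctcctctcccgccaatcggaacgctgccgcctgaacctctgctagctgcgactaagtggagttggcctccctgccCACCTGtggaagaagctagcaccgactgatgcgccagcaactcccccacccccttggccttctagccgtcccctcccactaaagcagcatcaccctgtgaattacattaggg

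Itgb5, a partner of alphav, differed between passages by -0.63 ± 0.22 (SE, adjusted p = 0.239), lower at late passage in 3 of 4 pairs, and in Smurf2-/- cells by -0.99 ± 0.24 (SE, adjusted p = 0.191). Itgb3, another partner of alphav, read 0.94 and 0.90 in the early mixed BL arrays of Smurf2-/- and wild-type cells and 0.16 or less in the other 6, the same pair of arrays in which Itgav and Itga4 were high. Itgb2, Itgb4 and Itgb7 ranged over 0.23, 0.31 and 0.54.

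Among the type I cadherins, Cdh3 (P-cadherin, best known from epithelia and placenta) came closest to the threshold. It read -0.69 and -1.27 in wild-type C57B6 and 0.04 and -1.02 in Smurf2-/- C57B6. The mixed BL arrays read 0.30 and -0.04 in wild-type and 1.13 and 0.48 in Smurf2-/-. In each of the 4 matched pairs of each factor it was higher in mixed BL, lower at late passage and higher in Smurf2-/-. The groups overlapped for every factor. The background difference was 1.20 ± 0.12 (SE; 2.30-fold higher, adjusted p = 0.0562), the passage difference -0.65 ± 0.12 (SE, adjusted p = 0.123) and the genotype difference 0.58 ± 0.12 (SE, adjusted p = 0.651). The background difference passed under 3 other settings, with an adjusted p of 0.0360 when each transcript cluster was tested alone, 0.0389 with a mean-variance trend and 0.0490 without the late Smurf2-/- C57B6 array. Cdh1, the next gene to Cdh3 on chromosome 8, ranged over 0.32.

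Cdh2, the main cadherin of mesenchymal cells, read -0.26 and -0.17 in wild-type C57B6 and 0.04 and 0.29 in wild-type mixed BL. The Smurf2-/- arrays read 0.63 and 0.16 in C57B6 and -0.04 and -1.09 in mixed BL. Only the late Smurf2-/- mixed BL array lay far from the rest. The genotype difference in mixed BL minus that in C57B6 was -1.34 ± 0.47 (SE, adjusted p = 0.939), and neither genotype (-0.06 ± 0.35, SE) nor passage (-0.30 ± 0.35, SE) gave a clear difference. Cdh4 and Cdh15, the retinal and muscle cadherins, ranged over 0.23 and 0.28.

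Among the type II cadherins, Cdh11 (OB-cadherin, a mesenchymal cadherin) read -0.13 and -0.44 in wild-type C57B6 and 0.13 and -0.76 in Smurf2-/- C57B6. The mixed BL arrays read 0.78 and 0.58 in wild-type and 0.64 and -0.24 in Smurf2-/-. It was lower at late passage in 4 of 4 pairs, by -0.57 ± 0.17 (SE, adjusted p = 0.196), and higher in mixed BL in 4 of 4, by 0.74 ± 0.17 (SE, adjusted p = 0.191). The passage pairs differed by -0.90 and -0.89 in Smurf2-/- and by -0.30 and -0.20 in wild-type cells, C57B6 first. The interaction was -0.64 ± 0.23 (SE, adjusted p = 0.893).

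Cdh18, known from the nervous system and read by 2 clusters, read -0.33 and -0.91 in wild-type C57B6 and -0.02 and -0.49 in Smurf2-/- C57B6. The mixed BL arrays read 0.46 and 0.03 in wild-type and 1.03 and 0.03 in Smurf2-/-. All mixed BL arrays lay above all C57B6 arrays, by 0.83 ± 0.11 (SE; 1.77-fold, adjusted p = 0.0971). The passage difference was -0.62 ± 0.11 (SE, adjusted p = 0.115), lower in 4 of 4 pairs, and the genotype difference 0.32 ± 0.11 (SE, adjusted p = 0.651), higher in 3 of 4. Cdh6, which lies on the same chromosome 15 as Cdh18, was higher in mixed BL by 0.61 ± 0.16 (SE, adjusted p = 0.218), and Cdh10, between them, ranged over 2.54 without such an order.

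Background was the factor with the most members whose groups did not overlap. It cannot be told apart from embryo pooling or exact passage number, which differed between the backgrounds. Higher in mixed BL were 3 members (Cdh18, Cdh13 and Cdh8, the last by 0.08 ± 0.05, SE), beside 3.02% of all genes, and lower were 2 (Itgb8 and Itga10), beside 2.89%. For passage there were 0 members higher and 0 lower without overlap, beside 5.44% and 4.59% of all genes. Of the remaining type II cadherins, Cdh5 (vascular endothelium), Cdh7, Cdh8 and Cdh20 ranged over 0.27 or less. Cdh22 and Cdh24 were higher at late passage in all 4 pairs, by 0.17 ± 0.07 and 0.16 ± 0.07 (SE, adjusted p = 0.287 and 0.316).

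Of the other cadherins, Cdh13 (T-cadherin, held in the membrane by a lipid anchor) was higher in mixed BL by 0.25 ± 0.09 (SE, adjusted p = 0.294). Cdh16, a kidney cadherin, read 1.76 in the late wild-type mixed BL array and between -0.16 and 0.14 in the other 7; Itga2 was highest and Itga8 lowest in that same array. Cdh17, an intestinal cadherin, was lower in Smurf2-/- at late passage by -1.18 ± 0.38 (SE, adjusted p = 0.290). Cdh23, of the hair cell tip link, and Cdh26 both ranged over 0.20.

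**Figure D3:**
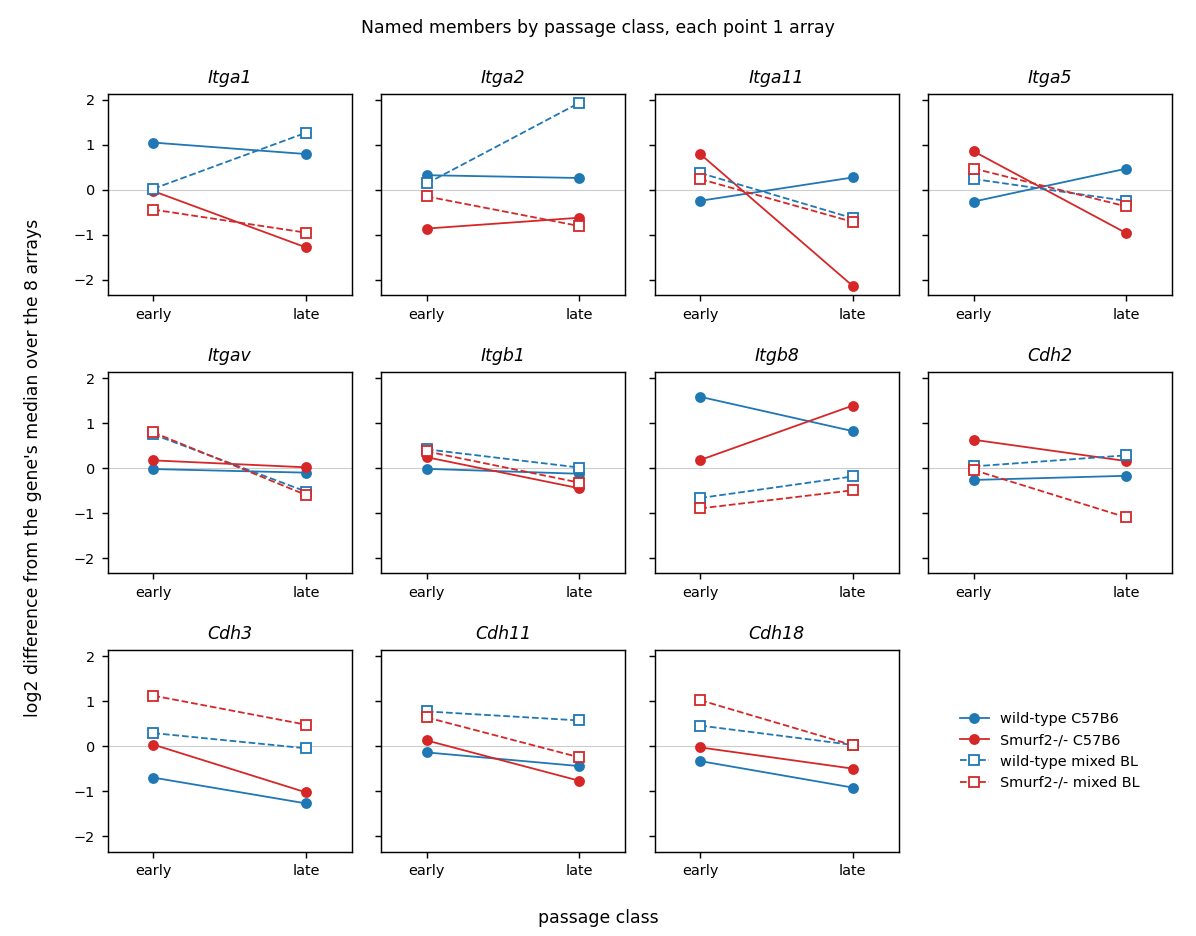
Values of 11 genes at early and late passage, 1 panel per gene and 1 point per array; the vertical axis is the log2 difference from the gene's median over the 8 arrays, and lines join the early and late array of a combination (circles C57B6, open squares mixed BL, blue wild-type, red Smurf2-/-). The red lines of Itga1 and Itga2 lie below the blue ones of the same background, and those of Itgb1 and Cdh11 descend in both backgrounds, by -0.69 and by -0.90 and -0.89.

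The genotypes were also compared within each passage class, and the passages within each genotype. At late passage 0 members were called, beside 0% of all genes; 7 members had an unadjusted p under 0.05 (1 higher and 6 lower in Smurf2-/-), beside 13.4%. Itga1 led them, at -2.15 ± 0.39 (SE, adjusted p = 0.148), before Itga2 at -1.81 ± 0.49 (SE, adjusted p = 0.242), Cdh11, Itgb5, Cdh17, Itgb1 and, on the higher side, Cdh3. At early passage 0 members and 0.00571% of all genes were called, and 2 members, Cdh3 at 0.78 ± 0.15 and Cdh18 at 0.43 ± 0.15 (SE, adjusted p = 1.0 for both), had an unadjusted p under 0.05, beside 1.09%.

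In wild-type cells 0 members were called for passage, beside 0% of all genes, and 3 had an unadjusted p under 0.05, all lower at late passage (Cdh18, Cdh3 and Itga8), beside 7.25%. In Smurf2-/- cells 0 were called, beside 0%, and 9 had an unadjusted p under 0.05, 8 of them lower, beside 14.8%. The 8 were Itgb1, Cdh3, Cdh11, Cdh18, Itgb5, Itga5, Itga11 and Itga9, from -0.68 in Itga9 to -1.94 in Itga11. Tested as an interaction of genotype with passage, 0 members and 0% of all genes were called, and 3 members (Itga5, Cdh11 and Itgb1) had an unadjusted p under 0.05, beside 5.35%. For the interaction of genotype with background 0 members and 0% were called, and 2 members (Cdh6 at -0.69 ± 0.18, SE, and Cdh2) had an unadjusted p under 0.05, beside 3.18%.

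Genes that work beside integrins and cadherins were taken from lists chosen with earlier results of these data known. None of them was called for genotype, passage or background. Of 27 genes listed as adhesion adaptors, linkers to actin and regulators together, 24 were lower at late passage, with a median of -0.36. Over all genes the median was 0.03, and 7444 of 17501 were lower. Of the adaptors 11 were at log2 8 or more in every array. Among all 3727 genes of that class, 2396 were lower at late passage, with a median of -0.09. An unadjusted p under 0.05 was found for 10, all lower, beside 17.3% of all genes (1805 of 17501 lower). Among them were Tln1, which encodes talin (-0.43 ± 0.09, SE, adjusted p = 0.126), the tensin gene Tns1 (-0.65 ± 0.13, adjusted p = 0.123) and Itgb1bp1, which binds the beta1 tail (-0.52 ± 0.10, adjusted p = 0.122). The median of the adaptors for passage was -0.59 in Smurf2-/- and -0.06 in wild-type cells. Over all genes these medians were 0.04 and 0.01, and over all genes at log2 8 or more -0.10 and -0.08. For the interaction of genotype with passage 0 adaptors were called, with a smallest limma adjusted p of 0.761. For genotype 20 of the 27 were lower in Smurf2-/- cells, with a median of -0.14. This direction differed by passage class: 20 were higher at early passage (median 0.08) and 23 lower at late passage (median -0.34). For background 18 were lower in mixed BL, with a median of -0.05. By array the mean of the adaptors was lowest in the late Smurf2-/- arrays, at -0.34 in C57B6 and -0.40 in mixed BL, and between -0.13 and 0.19 in the other 6. The late Smurf2-/- arrays also stood apart from the rest on the first principal component of all genes.

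Of 12 catenins and other cadherin partners, 6 were higher and 6 lower in Smurf2-/- cells. Ctnnb1, which encodes beta-catenin, differed by -0.39 ± 0.11 (SE) and Ctnnd1, which encodes p120-catenin, by -0.58 ± 0.19, both lower in 4 of 4 pairs (adjusted p = 0.651). Nectin2, an adhesion receptor of the same junctions, was higher in mixed BL by 0.53 ± 0.08 (SE, adjusted p = 0.110). Of 25 integrin ligands, 13 were lower at late passage, with a median of -0.03. The laminin chain gene Lama5 was lower in Smurf2-/- by -1.20 ± 0.29 (SE, adjusted p = 0.651) and in mixed BL by -1.24 ± 0.29 (adjusted p = 0.192). Tnc, which encodes tenascin C, was lower at late passage by -0.65 ± 0.17 (SE, adjusted p = 0.166).

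Of 11 transcription factors known to act on cadherin genes, 7 were lower at late passage, with a median of -0.13. Zeb2, a repressor of Cdh1, was lower by -0.70 ± 0.12 (SE, adjusted p = 0.116) and Tcf3, which encodes E2A proteins, higher by 0.41 ± 0.06 (adjusted p = 0.112). Twist2 was higher in Smurf2-/- by 1.05 ± 0.38 (SE, adjusted p = 0.651).

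Of 10 fibroblast markers none was called for passage. All 10 had negative passage differences, with a median of -0.47, and 2 had an unadjusted p under 0.05 (Pdgfrb and Thy1), beside 17.3% of all genes. Their mean by array lay between -0.90 in the late Smurf2-/- C57B6 array and 0.76 in the early Smurf2-/- mixed BL array, and the late Smurf2-/- mixed BL array, at 0.67, was almost level with the latter. Of 11 leukocyte and macrophage markers 7 were lower, with a median of -0.05 and array means from -0.09 to 0.43; Lyz2 differed by -1.72 ± 0.52 (SE, adjusted p = 0.206). The medians of the platelet, endothelium, epithelium, skeletal muscle, and neural and glial markers for passage lay between 0.04 and 0.11. Their part in the members' passage differences was not tested.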

How the data were processed

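Each of the 8 arrays gave 1 log2 value per transcript cluster, which the authors deposited centred on that cluster's own median (largest row median 5e-07 in size). How the arrays were normalised and probes summarised is not stated in any source used. Centred values hold no mean level, so a filter on dim clusters could not be applied; coarse levels were read from single-precision steps (tolerance 6e-08). The design text speaks of an exon array, but names came from a gene-level annotation of the same maker, which the cluster identifiers matched. Of 24169 clusters, 19134 had 1 symbol, 1230 several and 3805 none; 19067 were looked up by identifier in a RefSeq gene table (GRCm38.p6).

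Gene means were fitted with limma 3.58.1 in R 4.3.3 (lmFit, eBayes without trend) on all 17501 genes. Benjamini-Hochberg adjustment was applied, with a threshold of 0.05. Only the genotype comparison was tested on simulated data, with independent noise in each array. The additive model of genotype, background and passage class left 4 residual degrees of freedom, and models with 1 interaction 3. The number of arrays limits the precision. The number that ends each title is the passage class, so that model holds it as the replicate block. Values in all arrays are given for members called, members with a difference of 1 or more, the 4 members of smallest p per factor, and Itgb1, Itgav, Itga5, Cdh2 and Cdh11; up to 3 genes were named per list and comparison. Members and lists were chosen with earlier results of these data known. Alternatives were single clusters, cluster medians, a trend, quantile normalisation, array centring, no X and Y genes, all pairwise interactions, no replicate block and each array left out; leaving out both late Smurf2-/- arrays was added after the data were seen.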

Additional observations from a re-analysis of the deposited data

Results flagged for a closer look

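Among 66 checks of 4 arrays each (11 members at both levels of each factor), 1 array stood apart from its group. Itga2 read 1.94 in the late wild-type mixed BL array, whereas the other 3 wild-type arrays lay between 0.15 and 0.33, so the gap took up 0.898 of the whole range, above Dixon's critical value for 4 samples. Chance gives about 1 such array in 20 groups.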

How the results depend on the processing

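The count of called members was 0 for genotype and for passage, for both interactions and within each passage class and genotype under every alternative run. For background it was 1 (Cdh3) with each transcript cluster tested alone, with a trend, and without the late Smurf2-/- C57B6 array, so from 0 to 1 over the arrays left out, and 0 otherwise. The median over the members ranged from -0.028 to 0.015 for genotype, -0.012 to 0.017 for passage and -0.0092 to 0.057 for background. The Smurf2 difference kept its direction, and its adjusted p was under 0.05 in no alternative except cluster medians and a trend: it was -1.56 with clusters tested alone (adjusted p = 0.0517), -1.47 after quantile normalisation (0.217), -1.58 with arrays centred (0.0731), -1.57 without X and Y genes (0.232), with all pairwise interactions (0.158) and with no replicate block (0.498), from -1.69 to -1.49 with 1 array left out, and -1.40 without both late Smurf2-/- arrays (1.0). The model without the replicate block changed no other call.

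Signs that turned were all of differences not called. For genotype these were, without both late Smurf2-/- arrays, Itgb1 (0.11), Itga5 (0.67), Cdh2 (0.41) and Cdh11 (0.066); after quantile normalisation, Itga5 (0.12) and Cdh2 (0.047); and with 1 array left out, Itgav (-0.11 to 0.26), Itga5 (-0.36 to 0.31) and Cdh2 (-0.33 to 0.30). For passage they were Itga5 (0.12) and Cdh2 (0.17) without both late Smurf2-/- arrays, and Cdh2 with 1 array left out (-0.60 to 0.059). For background they were Cdh2 (0.028) without both late Smurf2-/- arrays, and with 1 array left out Itgav (-0.093 to 0.28), Itga5 (-0.33 to 0.36) and Cdh2 (-0.59 to 0.065). The cause was not tested. Signal over background is unknown for these centred values.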
